A study of Homo sapiens with 6 samples.

Results

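CD44, its antisense gene and the genes that make or degrade hyaluronan, the main ligand of CD44, were followed in HCT-8 cells, an established line of human colorectal adenocarcinoma. The set was chosen by gene name in the count table and held 9 of its 58735 genes. It comprised the receptor gene CD44, the antisense gene CD44-AS1, the synthase genes HAS2 and HAS3, the degrading-enzyme genes HYAL1, HYAL2, HYAL3 and CEMIP, and SPP1, which encodes a second CD44 ligand. RNA was sequenced from 3 untreated control samples and 3 samples exposed to 5-fluorouracil (5-FU), a pyrimidine analogue used against colorectal cancer, at the concentration that inhibits 10% (IC10). All 6 samples came from the 1 cell line, cultured as a monolayer in medium with serum; the labels state neither an exposure time nor a molar dose. The labels do not state whether replicates were grown separately; the p-values therefore reflect the spread among these libraries alone, and that spread could be technical.

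Hyaluronan is a long, unsulphated sugar chain that HAS enzymes extrude through the plasma membrane from the 2 nucleotide sugars UDP-glucuronic acid and UDP-N-acetylglucosamine. Outside the cell it is cut by surface or secreted enzymes, and the fragments are taken up and digested in lysosomes. CD44 is a transmembrane glycoprotein that binds hyaluronan through its outer domain and the cortical cytoskeleton through its tail, and it is widely used to mark colorectal cancer cells with stem-like behaviour. Its transcripts include or skip a series of variable exons.

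Gene counts summed to 18459939 to 23495607 per library. Mitochondrial genes took 4.66% to 4.88% of the counts in the control libraries and 25.5% to 28.5% in the 5-FU libraries. Levels are given as CPM, counts scaled to library size with TMM factors, and, where genes are compared with one another, as the authors' FPKM, which also divide by gene length. With edgeR's quasi-likelihood test, 13877 of 19771 tested genes (70.2%) differed at an adjusted p under 0.05. Because so many genes differed, each member's count and fold change is read beside that background. Of the colorectal epithelial markers, 8 of 8 passed the low-count filter; their summed level was 4690 to 6530 CPM in the control and 3510 to 4480 CPM in the 5-FU libraries, with 1 marker higher and 3 lower in edgeR. EPCAM, an epithelial adhesion gene, fell from 465 ± 58.3 to 241 ± 28.4 CPM, and CDX2, an intestinal transcription factor gene, from 125 ± 18.5 to 56.6 ± 4.40 CPM (SD, n = 3 in each group). KRT20, a keratin gene of differentiated colon epithelium, was the 1 called higher and was low in both groups, with 0.58 ± 0.32 CPM in the control and 1.95 ± 0.35 CPM in the 5-FU libraries. It passed the low-count filter only through its 5-FU libraries, so its call is no support for a rise. Among the 7 markers that reached the filter level in all control libraries, 0 were higher and 3 lower. Of the 8 markers, 4 were not called, and of all tested genes 36.3% were called higher and 33.9% lower. With upper-quartile factors in place of TMM, 2 markers were higher and 2 lower, against 48.6% and 23.3% of all tested genes.

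After 5-FU, the transcripts of the receptor CD44 rose, those of the degrading enzymes CEMIP and HYAL2 fell, and HAS3, HYAL1 and HYAL3 did not pass. Counts assigned to the antisense gene CD44-AS1 were also higher, but they cannot be told apart from reads of unspliced CD44 RNA. CEMIP fell 4.14-fold and HYAL2 1.90-fold, while CD44 rose 1.35-fold. Of the 9 genes, 7 passed the low-count filter; HAS2 and SPP1 did not and have no test. Of those 7, edgeR called 4, against 70.2% of all tested genes. It called 2 higher, where 36.3% of all tested genes were called higher, and 2 lower, where 33.9% were called lower. The groups did not overlap in CPM for 4 of the 7, against 74.3% of all tested genes. The median log2 fold change was 0.38 over the 7 genes and 0.09 over all tested genes. CD44-AS1 passed the filter, which asks for 0.473 CPM in 3 libraries, only through its 5-FU libraries, so a test of it could hardly give anything but a rise. Of the 6 other tested genes, 1 was higher and 2 were lower.

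**Figure D1:**
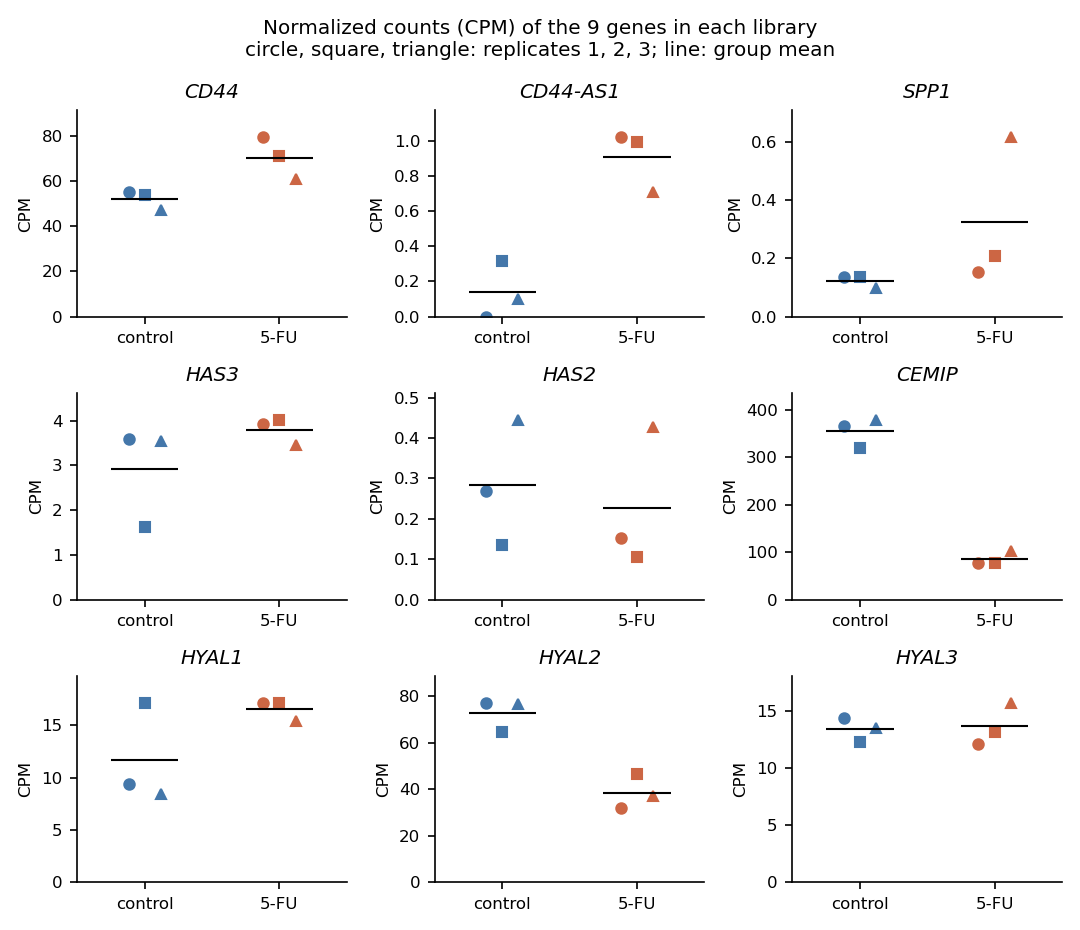
CPM (vertical axes, each starting at 0 and scaled to its own gene) of the 9 genes in the 3 control (blue) and 3 5-FU (red) libraries; circle, square and triangle are replicates 1, 2 and 3, and lines are group means. The groups are apart for CD44, CD44-AS1, CEMIP and HYAL2, and also for the untested SPP1, there by very few counts and not in FPKM. Control replicate 2 stands away from the other 2 control libraries for HYAL1 and HAS3.

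The receptor gene CD44 (ENSG00000026508) lies on the plus strand of chromosome 11 at 35138870 to 35232402 (GRCh38). Its level was 55.3, 53.8 and 47.3 CPM in control replicates 1, 2 and 3 and 79.3, 70.9 and 60.7 CPM in 5-FU replicates 1, 2 and 3. Every 5-FU library lay above every control library, though the gap between the highest control and the lowest 5-FU library was small beside the spread within the 5-FU group. The means were 52.1 ± 4.23 and 70.3 ± 9.32 CPM (SD, n = 3 in each group), a log2 fold change of 0.43 (SE 0.13, edgeR adjusted p = 0.0108). Among all tested genes, 60.0% had a lower log2 fold change than CD44. On the authors' FPKM scale CD44 measured 5.41 ± 0.42 in the control and 6.58 ± 0.70 in the 5-FU libraries, and 59.0% of tested genes had a lower control FPKM.

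The CD44 call was the least stable of the 4. It was kept in 13 of 19 other settings, with a log2 fold change of 0.24 to 0.79 and adjusted p-values of 0.000319 to 0.12, and it was lost in 6. Those were both fits without the low-count filter, all 3 fits of the FPKM table, and the fit without control replicate 3, the lowest CD44 library, where the log2 fold change was 0.33 and the edgeR adjusted p was 0.0758. Leaving out all mitochondrial genes gave a log2 fold change of 0.41. CD44 has 39 annotated transcripts in GENCODE 29, of which 26 are coding; the gene-level counts sum over them, so standard and variant CD44 were not separated here.

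A pair of reference sequences shows where the CD44 locus bears on these measurements. The first is the part of CD44 coding sequence that lies opposite an exon of CD44-AS1, at chr11:35214852-35214914 (GRCh38, plus strand), written 5′ to 3′ in the sense of CD44. It is 63 bases long and is included in 10 of the 26 annotated coding transcripts. That counts annotated models and does not give the share of CD44 RNA that carries the stretch. Reads from it could belong to either gene where counting does not use strand. The second is the last 30 bases before the RefSeq start site of CD44, at chr11:35139141-35139170 (GRCh38.p14, plus strand). GENCODE 29 starts the gene 301 bases further upstream and places all 250 bases before the RefSeq start in exons, so this stretch can be transcribed; it is shown with capitals marking the single match to GGAA there, which reads TTCC on this strand.
CD44 coding stretch opposite CD44-AS1: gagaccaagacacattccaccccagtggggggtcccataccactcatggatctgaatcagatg
CD44 before the RefSeq start: ataaaaactgcagccaacTTCCgaggcagc

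GGAA is the core bound by ETS factors, the family of ELF3, which the study's title names as controlling CD44. ELF3 measured 53.8, 36.0 and 38.7 CPM in the control and 273.8, 233.3 and 203.3 CPM in the 5-FU libraries, with no overlap. In the 250 bases before the start site, searched on both strands, CD44 had 2 matches to GGAA and 1 to the longer ETS form CGGAAG, the latter overlapping the capitals above and starting 13 bases before the start. GGAA occurs in 92.7% of 35116 RefSeq promoters of that length, with a median of 3 matches, and CGGAAG in 16.5%. Promoter sequence was given for 7 of the 9 genes, all but CD44-AS1 and HAS2, and CD44 was the only one of them with CGGAAG. HYAL2 and HAS3 had 7 matches to GGAA each, and HYAL1, HYAL3, CEMIP and SPP1 had 1 each. The RefSeq start lies 8807 bases inside the GENCODE 29 gene for HYAL1 and 1976 bases inside it for HAS3. Their windows are therefore not upstream of the whole gene as counted. GGGCGG, the core bound by SP1, matched 3 times in CEMIP, 2 times each in CD44, HYAL1 and HYAL3, and once in HAS3, and is found in 42.6% of promoters. TGANTCA, the AP-1 motif, matched in none of the 7 and is found in 6.57%. These matches describe letters, not binding.

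CD44-AS1 (ENSG00000255443) is a noncoding gene on the minus strand at chromosome 11, 35210343 to 35214985, wholly inside CD44. Its raw counts were 0, 7 and 2 in the control and 20, 19 and 15 in the 5-FU libraries. All 3 5-FU libraries were above all 3 control libraries, and the control libraries lay near the limit of detection. In CPM the counts assigned to it went from 0.14 ± 0.16 to 0.91 ± 0.17 (SD, n = 3 in each group), a log2 fold change of 2.65 (SE 0.64, edgeR adjusted p = 0.00269). The size rests on a few reads: it was 2.03 without control replicate 1 and 4.06 without control replicate 2. Because the gene entered the filtered fits only through the group where it is high, its call there is no support for a rise. In the fits with no filter on low values the log2 fold change was 2.51 (edgeR), 2.57 (DESeq2) and 0.997 (log2(FPKM + 1), where low genes are understated), each called. The median log2 fold change over all genes in those fits was 0.63, 0.65 and 0.044, against 0.09 in the filtered edgeR fit.

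Of the 587 exonic bases of CD44-AS1, 84 (14.3%) lie opposite exons of CD44, and the other 503 lie opposite introns of CD44. The library kit as named does not mark strand and the labels give no strand setting for the counting, so CD44-AS1 counts and reads from unspliced CD44 RNA cannot be told apart. Within a library, the log2 ratio of CD44-AS1 to CD44 counts was −9.05 ± 2.02 in the control and −6.25 ± 0.12 in the 5-FU group. The difference of 2.81 gave an exact two-sided permutation p of 0.1, the smallest that 3 against 3 allows, and this ratio was chosen after the counts had been seen. It was 1.70 without control replicate 1, the library with no CD44-AS1 read, and 3.68 without control replicate 2.

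By the distance between centred log2 CPM profiles over the 6 libraries, the 5 protein-coding genes most like CD44, among 11417 compared, were ZNF587, ICA1, FAM110C, BAZ2B and ABTB2. The root mean square distances ran from 0.048 to 0.0618. ABTB2 is on the same chromosome as CD44, at 34150988 to 34358008. When the profile was taken from log2(FPKM + 1), 3 of the 5 were named again.

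SPP1 (ENSG00000118785, chromosome 4, 87975650 to 87983426, plus strand) encodes osteopontin, a secreted phosphoprotein that binds CD44 and several integrins. Its counts were 3, 3 and 2 in the control and 3, 4 and 13 in the 5-FU libraries. Only 5-FU replicate 3 stood well above the rest. In CPM the groups did not overlap, at 0.09869 to 0.1356 in the control and 0.1528 to 0.6155 in the 5-FU libraries. That gap rests on very few counts and was absent in FPKM, where 5-FU replicate 1 (0.05945) lay below control replicate 1 (0.06072). The gene was too low to be tested. Of the integrin genes whose products bind osteopontin, 5 of 8 were tested, with 1 higher and 4 lower and a median log2 fold change of −0.53. Of all tested genes, 36.3% were called higher and 33.9% lower. ITGAV, the alpha V chain, was 278 ± 13.8 in the control and 176 ± 4.28 CPM after 5-FU, and ITGB1, the beta 1 chain, 516 ± 13.2 and 290.0 ± 47.0 CPM (SD, n = 3). The riser was ITGA9, from 1.14 ± 0.40 to 3.18 ± 0.15 CPM. With upper-quartile factors 1 was higher and 2 were lower, against 48.6% and 23.3% of all tested genes.

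Among the synthases, HAS3 (ENSG00000103044, chromosome 16, 69105564 to 69118719, plus strand) was the most abundant transcript in every library, with 66.7% to 84.0% of the summed synthase FPKM in the control and 67.6% to 78.2% in the 5-FU group. Its level was 3.59, 1.63 and 3.55 CPM in the control and 3.92, 4.02 and 3.46 CPM in the 5-FU libraries. The groups overlapped, and the low control mean came from replicate 2. HAS3 did not pass (log2 fold change 0.38, SE 0.29, edgeR adjusted p = 0.266), and the value was 0.05 without control replicate 2. HAS3 shares 6.90% of its exonic bases with CHTF8 on the opposite strand.

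HAS2 (ENSG00000170961, chromosome 8, 121612116 to 121641390, minus strand) had 6, 3 and 9 counts in the control and 3, 2 and 9 in the 5-FU libraries. Those values overlap fully and were too low to test. HAS1, the third synthase gene and not one of the 9, had 8, 6 and 1 counts in the control and 14, 8 and 6 after 5-FU. The summed synthase FPKM was 0.95, 0.47 and 0.84 in the control and 0.99, 0.93 and 0.84 after 5-FU, so synthase transcripts stayed under 1 FPKM in all 6 libraries. The log2 ratio of HAS3 to HAS2 counts was 3.31 ± 0.35 and 4.12 ± 1.04 (exact two-sided permutation p = 0.3), and their difference of 0.81 became 0.40 to 1.40 when 1 library was left out.

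The enzymes that supply the 2 UDP-sugars were all lower or did not pass. Of 11 genes on that list, 10 were tested, 0 were called higher and 9 lower, with a median log2 fold change of −0.92, against 0.09 over all tested genes. Of all tested genes, 36.3% were called higher and 33.9% lower. GNPNAT1, which acetylates glucosamine phosphate, fell from 75.2 ± 9.47 to 20.6 ± 3.59 CPM. UGDH, which makes UDP-glucuronic acid, fell from 313 ± 35.6 to 91.9 ± 16.2 CPM, and GPI, the phosphoglucose isomerase, from 447 ± 53.1 to 146 ± 18.8 CPM (SD, n = 3). PGM3, a phosphoglucomutase of the acetylglucosamine branch, did not pass (63.8 ± 3.16 and 56.6 ± 1.69 CPM). With upper-quartile factors 7 were lower and 0 higher, against 23.3% and 48.6% of all tested genes. These enzymes also feed glycolysis and protein glycosylation.

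CEMIP (ENSG00000103888, chromosome 15, 80779343 to 80951776, plus strand), a secreted protein needed for hyaluronan breakdown in several cell types and often raised in colorectal cancer, changed most of the 4 degrading-enzyme genes. It measured 366.6, 319.1 and 378.3 CPM in the control and 77.7, 77.9 and 101.4 CPM in the 5-FU libraries. Every 5-FU library was far below the lowest control library, and 5-FU replicate 3 was the highest of its group. The means were 355 ± 31.3 and 85.7 ± 13.6 CPM (SD, n = 3 in each group), a log2 fold change of −2.05 (SE 0.15, edgeR adjusted p = 1.28e-06). Only 2.75% of tested genes had a lower log2 fold change, and the call was kept in 19 of 19 other settings, at −2.21 to −1.69. Of its exonic bases, 2.94% lie opposite another annotated gene.

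HYAL2 (ENSG00000068001, chromosome 3, 50317790 to 50322906, minus strand) encodes a hyaluronidase anchored to the cell surface that cuts long chains into shorter ones. It measured 77.1, 64.9 and 76.6 CPM in the control and 31.8, 46.4 and 37.1 CPM in the 5-FU libraries. The groups were apart, with 5-FU replicate 2 the nearest to the control. The means of 72.9 ± 6.95 and 38.4 ± 7.41 CPM (SD, n = 3 in each group) gave a log2 fold change of −0.92 (SE 0.15, edgeR adjusted p = 0.000199), kept in 19 of 19 other settings at −1.09 to −0.56. HYAL2 shares 11.2% of its exonic bases with TUSC2 on the same strand, a gene that fell less (log2 fold change −0.38). The TUSC2 call was lost in 5 of 19 other settings, and its value over all 19 ran from −0.53 to −0.02.

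For the 2 genes that fell, the reference sequence upstream is shown because the matches named above lie in it; capitals mark GGAA or its reverse complement TTCC, and each stretch leaves out bases that GENCODE 29 places in exons. The HYAL2 stretch is chr3:50322907-50322995 (GRCh38.p14, minus strand), from 250 to 162 bases before its RefSeq start, with 2 of its 7 matches. The CEMIP stretch is chr15:80779120-80779342 (GRCh38.p14, plus strand), from 250 to 28 bases before the start, with its only match.
HYAL2 upstream: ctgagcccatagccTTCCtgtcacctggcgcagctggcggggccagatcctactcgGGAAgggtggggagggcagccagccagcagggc
CEMIP upstream: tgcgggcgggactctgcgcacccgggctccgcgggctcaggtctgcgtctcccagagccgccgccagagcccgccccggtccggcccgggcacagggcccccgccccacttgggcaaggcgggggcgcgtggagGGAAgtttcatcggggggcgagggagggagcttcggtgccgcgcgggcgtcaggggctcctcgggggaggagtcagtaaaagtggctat

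HYAL1 (ENSG00000114378, chromosome 3, 50299889 to 50312381, minus strand) encodes the lysosomal hyaluronidase. It measured 9.42, 17.1 and 8.49 CPM in the control and 17.1, 17.1 and 15.4 CPM in the 5-FU libraries. Control replicate 2 lay at the 5-FU level, so the groups overlapped, while the other 2 control libraries lay below all 5-FU libraries. With all 6 libraries the gene did not pass (log2 fold change 0.50, SE 0.23, edgeR adjusted p = 0.075); without control replicate 2 the value was 0.85 (edgeR adjusted p = 0.000807). Over all 19 other settings the value stayed positive, at 0.28 to 0.85, with adjusted p-values of 0.000807 to 0.31, and 5 of them called the gene. Among them was the fit with the replicate block (0.57, edgeR adjusted p = 0.0275), though the replicate numbers did not pair the libraries. HYAL1 shares no exonic bases with another annotated gene.

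HYAL3 (ENSG00000186792, chromosome 3, 50292831 to 50299468, minus strand) is the third hyaluronidase gene of the cluster. It measured 14.4, 12.3 and 13.5 CPM in the control and 12.1, 13.1 and 15.7 CPM in the 5-FU libraries. The groups overlapped fully, and the difference was near 0 (log2 fold change 0.03, SE 0.16, edgeR adjusted p = 0.887), with a sign that was positive in 9 and negative in 10 of the 19 other settings. NAA80 on the same strand shares 12.2% of the exonic bases of HYAL3.

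The 3 hyaluronidase genes lie side by side on chromosome 3, yet HYAL2 fell while HYAL1 and HYAL3 did not pass. Ratios within a library do not depend on how libraries are scaled. The log2 ratio of HYAL1 to HYAL2 counts was −3.03, −1.92 and −3.17 in the control and −0.89, −1.44 and −1.27 in the 5-FU libraries, a difference of 1.51 between means. The log2 ratio of HYAL3 to HYAL2 was −2.44 ± 0.054 and −1.49 ± 0.30 (SD, n = 3), a difference of 0.96. In both ratios each 5-FU library was above each control library, and both gave an exact two-sided permutation p of 0.1, the smallest that 3 against 3 allows. Of the protein-coding neighbours within 100 kb, 12 of 13 were tested, with 2 higher and 3 lower, against 36.3% and 33.9% of all tested genes. SEMA3B, a secreted semaphorin gene, rose from 111 ± 15.9 to 282 ± 31.4 CPM, and LSMEM2, which passed the low-count filter only through its 5-FU libraries, was called higher at 0.49 ± 0.21 and 3.64 ± 1.43 CPM. GNAI2, a G protein subunit gene, fell from 200 ± 10.5 to 97.0 ± 7.71 CPM, and IFRD2 from 90.9 ± 18.7 to 40.1 ± 5.61 CPM. TUSC2 was the third called lower, a call lost in 5 of 19 other settings. With upper-quartile factors 5 neighbours were higher and 2 lower, against 48.6% and 23.3% of all tested genes.

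CEMIP2 (not one of the 9) encodes a surface hyaluronidase related to CEMIP, and it measured 232 ± 16.3 in the control and 164 ± 7.89 CPM after 5-FU. It fell in edgeR (log2 fold change −0.50, SE 0.12, edgeR adjusted p = 0.00262), but it was no longer called with upper-quartile factors (−0.14) or at a mean count of at least 50 (−0.25). Summed over CEMIP, CEMIP2 and HYAL1 to HYAL4, the FPKM of degrading-enzyme genes was 105.3, 91.4 and 105.5 in the control and 40.9, 46.7 and 49.9 in the 5-FU libraries. The authors' FPKM scaling lowers 5-FU values against control more than TMM does, so the size of this fall depends on it. Shares of the sum within a library do not. CEMIP made up 46.6% to 49.3% of that sum in the control and 20.9% to 25.5% after 5-FU. CEMIP2 was the largest part after 5-FU, at 33.7% to 36.9%. HYAL1 made up 2.69% to 6.08% in the control and 9.42% to 12.1% after 5-FU, and HYAL3 6.62% to 7.03% and 13.1% to 14.8%. The share of HYAL2 overlapped between the groups, at 15.9% to 16.9% and 15.4% to 20.9%. HYAL4 had 0 to 2 counts per library, and SPAM1 and HYAL6P had 0 in all 6, where 3 counts would be 0.128 to 0.163 CPM. These limits cover counting error only.

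**Figure D2:**
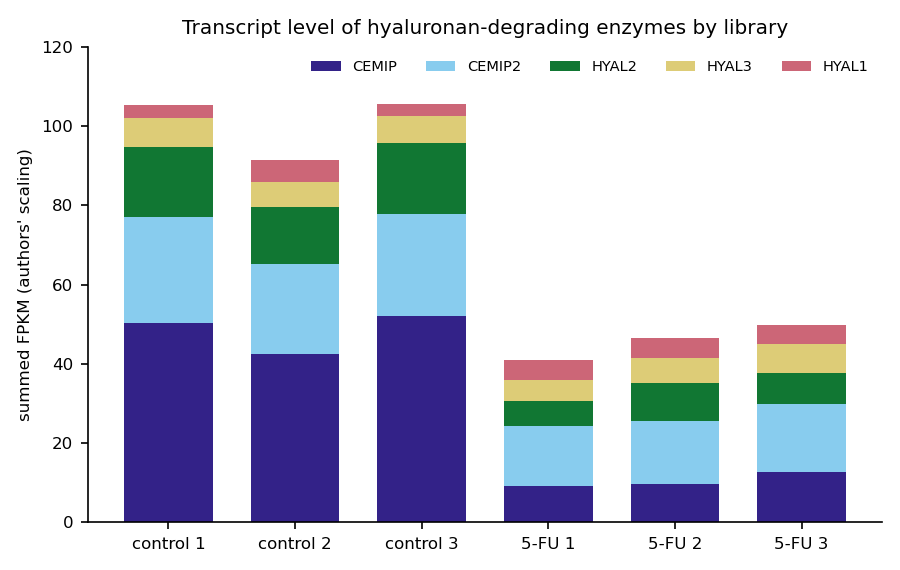
Stacked FPKM (vertical axis, from 0, as scaled by the authors) of 5 hyaluronan-degrading-enzyme genes in each of the 6 libraries. The sum is 91.4 to 105.5 in the control and 40.9 to 49.9 in the 5-FU libraries, and the CEMIP block shrinks most; HYAL4 is too low to be drawn.

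In order of control FPKM, the 9 genes ran CEMIP (48.3 ± 5.04), HYAL2 (16.7 ± 1.85), HYAL3 (6.85 ± 0.63), CD44 (5.41 ± 0.42), HYAL1 (3.85 ± 1.49), HAS3, CD44-AS1, HAS2 and SPP1. After 5-FU the order was CEMIP (10.6 ± 1.89), HYAL2 (7.97 ± 1.73), CD44 (6.58 ± 0.70), HYAL3 (6.32 ± 1.02), HYAL1 (4.95 ± 0.26), CD44-AS1, HAS3, SPP1 and HAS2. In the control, CEMIP, HYAL2, HYAL3 and CD44 did not overlap from one to the next in the values of single libraries, while CD44 overlapped HYAL1 through control replicate 2, and HAS3 overlapped CD44-AS1. After 5-FU the ranges of CEMIP and HYAL2, of HYAL2 and CD44, and of CD44 and HYAL3 each overlapped. Within each single 5-FU library CEMIP was above HYAL2, though only by 9.774 against 9.763 FPKM in replicate 2. The order of HYAL2 and CD44, and that of CD44 and HYAL3, changed between 5-FU libraries, so these could not be separated. FPKM divide by all annotated exonic bases of a gene, 10004 for CD44 and 2030 for HYAL3. The order in both groups therefore also depends on the annotation.

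Among the other hyaluronan receptors, 4 of 7 genes were tested, with 2 higher and 1 lower, against 36.3% and 33.9% of all tested genes. HMMR, a hyaluronan-binding protein that also sits on the mitotic spindle, measured 95.8, 74.1 and 137.1 CPM in the control and 2.80, 4.64 and 4.97 CPM in the 5-FU libraries. The groups were far apart, with a log2 fold change of −4.62 (SE 0.27, edgeR adjusted p = 5.59e-07). TLR2, an innate immune receptor that hyaluronan fragments can engage, rose from 6.22 ± 0.89 to 10.5 ± 1.01 CPM, and STAB2, a scavenger receptor, from 0.82 ± 0.16 to 1.84 ± 0.37 CPM. STAB1 did not pass.

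Of 19 genes for matrix and plasma proteins that bind hyaluronan, 10 were tested, with 6 higher and 3 lower. Of all tested genes, 36.3% were called higher and 33.9% lower. Of the 6 risers, 5 (VCAN, HAPLN2, ITIH2, ITIH3 and ITIH4) passed the low-count filter only through their 5-FU libraries. The count of risers is thus tilted by the filter. Among the 5 genes that reached the filter level in all control libraries, 1 was higher and 3 were lower. Of those 3, 1 did not reach the filter level in all 5-FU libraries, so this split can be tilted towards falls. The riser among these 5 genes was HAPLN3, a link protein, from 9.70 ± 0.44 to 35.1 ± 6.57 CPM. VCAN, the proteoglycan versican, measured 0.43 ± 0.077 and 2.77 ± 1.42 CPM. C1QBP, a hyaluronan-binding protein found mainly in mitochondria, fell from 357 ± 55.9 to 65.4 ± 18.2 CPM. At a mean count of at least 50 only 4 of the list were tested, with 1 higher and 2 lower and a median of −0.10.

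Genes whose products act on CD44 protein or RNA were read as 3 lists, against 36.3% higher and 33.9% lower over all tested genes. Of 8 cytoskeletal partners, 1 was higher and 5 lower, with a median log2 fold change of −0.60. RDX, which links membrane proteins to actin, fell from 116 ± 4.65 to 50.6 ± 6.93 CPM, and TIAM1, an activator of Rac, from 33.4 ± 5.93 to 17.6 ± 1.80 CPM. MSN, the related moesin gene, was the 1 called higher, at 0.48 ± 0.13 and 2.54 ± 0.29 CPM, and it passed the low-count filter only through its 5-FU libraries. EZR, the most abundant of that family, did not pass (617 ± 78.3 and 476 ± 77.7 CPM). Of 10 genes for the enzymes that shed or cleave CD44, 9 were tested, with 2 higher and 5 lower and a median of −0.40. The gamma-secretase subunit genes APH1A (155 ± 10.1 to 62.5 ± 8.93 CPM) and NCSTN (132 ± 4.98 to 76.5 ± 10.4 CPM) fell, as did the metalloprotease gene MMP7 (6.87 ± 1.75 to 3.15 ± 1.03 CPM).

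Of 6 regulators of CD44 variable exons, 1 was higher and 3 lower, with a median log2 fold change of −0.48. KHDRBS1, known as Sam68, fell from 291 ± 12.0 to 82.3 ± 12.1 CPM, HNRNPM from 539 ± 113 to 167 ± 22.2 CPM, and TRA2B from 234 ± 41.6 to 135 ± 16.2 CPM. Among these 3 lists the split moved with upper-quartile factors, which raised the median of all tested genes from 0.09 to 0.45 and called 48.6% of them higher and 23.3% lower. It became 1 higher and 3 lower for the cytoskeletal partners, 3 and 3 for the cleaving enzymes, and 2 and 3 for the splicing regulators. Near CD44 itself, 4 of 5 protein-coding genes starting within 500 kb were tested. SLC1A2, a glutamate transporter gene, rose from 3.90 ± 0.77 to 14.8 ± 3.92 CPM. PDHX (44.4 ± 3.62 to 26.7 ± 0.34 CPM), APIP (43.8 ± 1.48 to 17.5 ± 2.11 CPM) and FJX1 (39.5 ± 10.5 to 18.1 ± 4.63 CPM) fell.

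**Figure D3:**
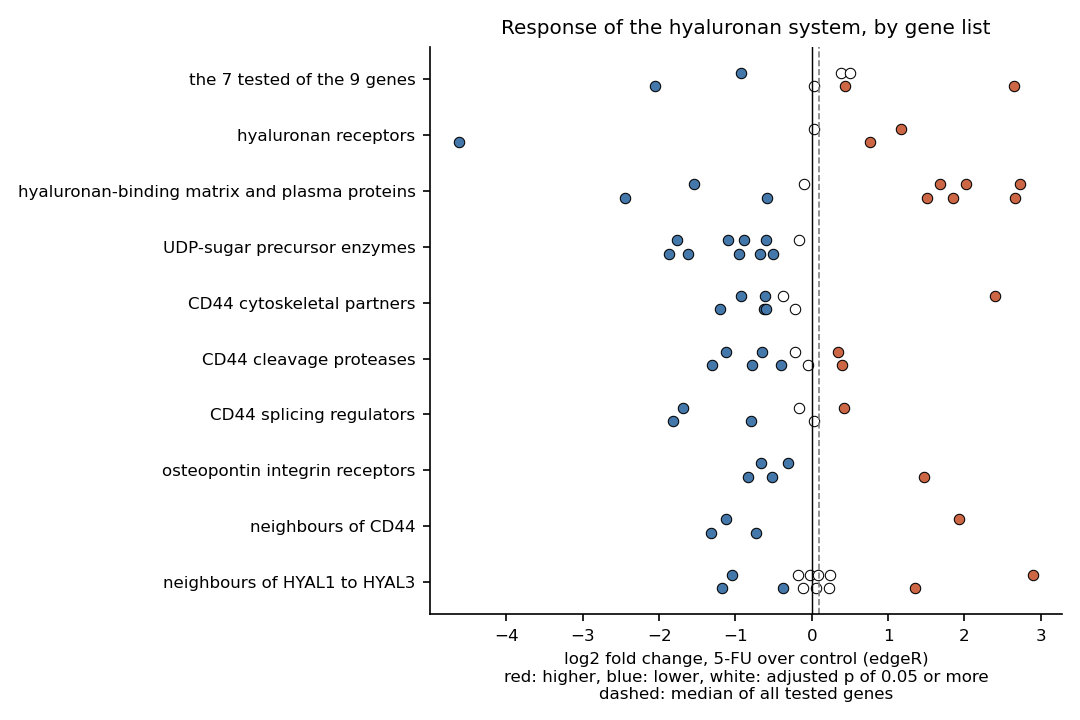
log2 fold change of 5-FU over control (horizontal axis, edgeR) for each tested gene of the 9 and of 9 lists of related or neighbouring genes, with red called higher, blue called lower and white not called. The UDP-sugar enzymes all lie below 0, HMMR is the far-left point among the receptors, and the dashed line is the median of all tested genes, 0.09.

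Markers of other cell types were read beside these results. Of 6 fibroblast markers, 2 were tested and 1 was higher; their summed level was 15.7 to 20.2 CPM in the control and 34.3 to 64.6 CPM in the 5-FU libraries. COL1A1 made up 77.7% to 92.9% of the control sums and 91.5% to 94.3% of the 5-FU sums, at 15.2 ± 3.07 and 42.4 ± 16.1 CPM, while DCN and LUM were at 0 in every library. Of 6 leukocyte markers, 2 were tested and 0 called, with summed levels of 7.09 to 7.70 and 6.31 to 8.15 CPM, mostly CD14 at 6.64 ± 0.46 and 6.10 ± 0.90 CPM. Of 4 endothelial markers, 2 were tested, with sums of 2.17 to 3.12 and 3.55 to 5.55 CPM. VWF was higher, at 1.08 ± 0.17 and 2.13 ± 0.37 CPM, and PECAM1, the most abundant, did not pass, at 1.34 ± 0.29 and 2.13 ± 0.66 CPM. Their part in the results was not tested. In such bulk samples, fewer cells expressing a gene and less RNA per cell cannot be told apart.

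**Figure D4:**
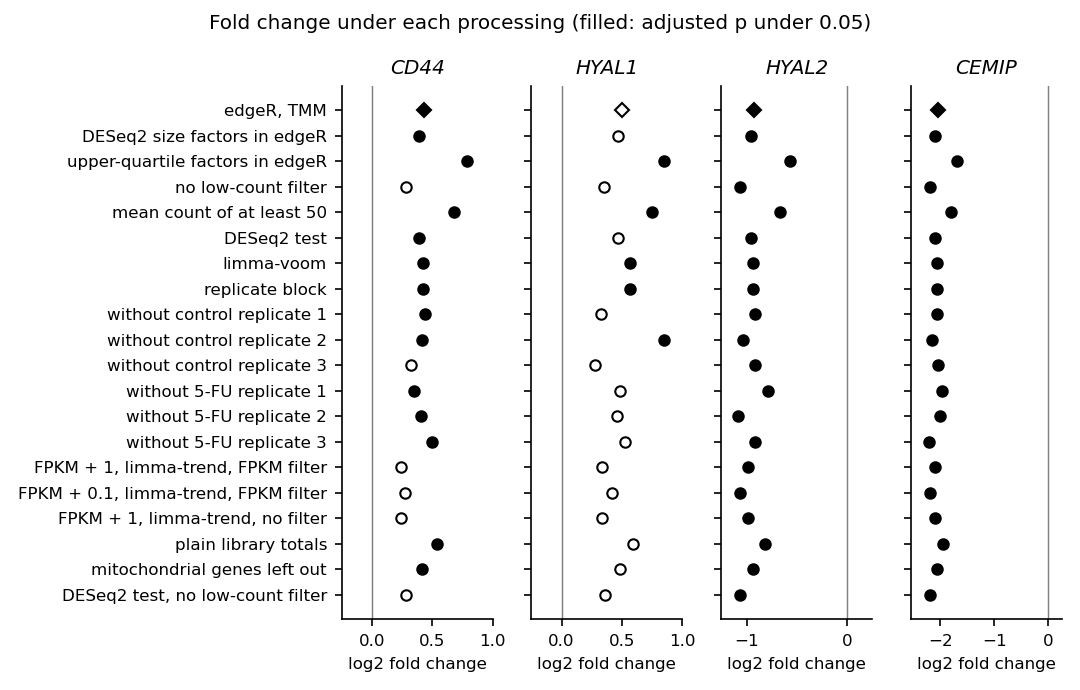
log2 fold change (horizontal axes, 1 range per gene) of CD44, HYAL1, HYAL2 and CEMIP under each processing; the diamond is the reported fit and filled symbols have an adjusted p under 0.05. HYAL2 and CEMIP stay filled throughout, CD44 is open in 6 of the 19 alternatives, and HYAL1 is filled in 5.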

How the data were processed

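Cells were lysed in TRIzol and the NEBNext Ultra RNA kit was used for libraries, per the labels' protocols. The submitters' processing notes name DESeq2 1.16.1, featureCounts 1.5.0-p3, HISAT2 2.0.5 and the build GRCh38, with no setting for strand or for reads matching several genes. Raw counts of 58735 genes were deposited as whole numbers, and all identifiers match GENCODE 29. The authors' FPKM equal counts divided by gene length and a library constant, which was 0.892 to 0.986 times the count total in the control and 1.07 to 1.16 times in the 5-FU libraries.

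Groups came from the treatment label. Counts were filtered with filterByExpr (minimum count 10, total 15), scaled with TMM and tested across all 6 libraries with edgeR 4.0.16 in R 4.3.3 (quasi-likelihood, group as the only term, Benjamini-Hochberg over 19771 genes, called under 0.05). Standard errors were obtained as |log2 fold change| over the root of the F statistic, with no shrinkage. Ratios within libraries used counts plus 0.5 and an exact two-sided permutation test. Promoter sequences came from RefSeq (GRCh38.p14). Scripts were tested on simulated data. A chi-square comparison gave 9.02 to 23.4 per gene between libraries of 1 group, beyond counting noise, so none was treated as a duplicate deposit.

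The members and lists were chosen with earlier results of these data known. Text names the 9 members, ELF3, up to 3 passing genes of smallest p per list (or the 2 most abundant where none passed), the most abundant marker of other cell types, all called neighbours and the 5 genes most like CD44. Other genes named as not called or lying on shared exons (PGM3, EZR, STAB1, CHTF8, NAA80), and VWF, HAPLN2, ITIH2, ITIH3, ITIH4, HAS1, HYAL4, SPAM1, HYAL6P, DCN and LUM, were added after their values were seen. Of the list genes, 2 symbols had no match. The result of 1 list is not reported here.

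Alternatives were other size factors in edgeR (DESeq2's or upper-quartile), other filters (none, or a mean count of at least 50), other tests (DESeq2 1.42.0 and voom in limma 3.58.1), a replicate block, and omission of 1 library at a time. The FPKM table was fitted with limma-trend after adding 1 or 0.1 and taking log2, keeping genes that reached an FPKM of 1 in 3 libraries, or all genes after adding 1; fold changes on those scales understate low genes. Plain library totals, omission of mitochondrial genes, DESeq2 without the filter and the CD44-AS1 to CD44 ratio were added after seeing the data.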

Additional observations from a re-analysis of the deposited data

How the results depend on the processing

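The calls of CEMIP and HYAL2 kept their direction and threshold in all 19 alternatives. The log2 fold change of CD44 lost its call without the low-count filter (0.28 in edgeR, 0.28 in DESeq2) and in the FPKM table (0.24 with log2(FPKM + 1), filtered or not, and 0.28 with log2(FPKM + 0.1)). Leaving out 1 library gave 0.33 (without control replicate 3, call lost) to 0.50. The number of members called was 7, and of members higher 5, with upper-quartile factors, which called 9602 genes higher (48.6%) and 4614 lower (23.3%) over the whole table, against 7171 and 6706. Members higher were 1 without the filter in edgeR and DESeq2 and in the 3 FPKM fits, and 1 to 3 when 1 library was left out. Over all genes, 4320 were higher with log2(FPKM + 1) and 4268 with log2(FPKM + 0.1) after the FPKM filter. Of the genes most like CD44, 3 were shared with the FPKM profile. The causes were not tested.

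Same-numbered libraries did not deviate together (r = −0.0718, −0.202 and 0.0603), so the numbers were not taken as pairs. With the replicate block, 13243 genes were called against 13877 and 5 members against 4, since HYAL1 was now called (0.57, edgeR adjusted p = 0.0275; 0.000807 to 0.31 over all alternatives). CD44 kept its call (0.43, edgeR adjusted p = 0.0161; 0.000319 to 0.12). Counts under about 10 per library (HAS2, SPP1, CD44-AS1 in the control) limit what could be detected for those genes.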
